A study of Mus musculus with 2 samples.

Results

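Heat shock proteins and their DnaJ cochaperones were described across the leukocytes of tumour-bearing mouse lungs. The genes were taken by symbol: every HSPA, HSPB, HSPD, HSPE, HSPH and HSP90 gene, every DnaJ gene of the A, B and C classes, and the cofactors Hspbp1 and Hspbap1. This gave 66 of the 16184 genes in the tables, 39 of them DnaJ genes and 27 not. The latter were 12 HSPA genes, 1 HSPH gene, 3 HSP90 genes, 5 HSPB genes, 4 HSPD or HSPE genes and the 2 cofactors. By their symbols, Dnajc19-ps and Hspd1-ps3 are pseudogene copies, and reads of such copies may be shared with Dnajc19 and Hspd1.

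The study compared 2 groups of Scgb1a1cre/iDTR mice, in which tamoxifen makes cells that use the Scgb1a1 promoter (mainly club cells of the airway lining) sensitive to diphtheria toxin (DT). Both groups received 150000 HKP1 lung tumour cells by tail vein, tamoxifen for 5 days from day 3, anti-PD-1 antibody on day 6 and lung irradiation of 4 Gy on each of 3 days from day 10. By the sample titles and the series design, the DT group received toxin to deplete club cells and the control group PBS. The treatment text of both samples lists the same 2 doses of toxin on days 8 and 9, so each ratio of DT to PBS below rests on the titles and the design. With 4 mice per group, live CD45+ cells were sorted 24 to 48 h after irradiation and sequenced as 1 10x Genomics 3′ library per group. The sources used here do not state age, sex or how the mice were pooled. The measured cells are leukocytes, not the depleted club cells, and both groups carried tumour, tamoxifen, antibody and irradiation, so no untreated level was measured.

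Chaperones bind unfolded protein stretches and help them fold. HSP70 proteins (the HSPA genes) do this in cycles of ATP use: a DnaJ protein delivers the client and triggers ATP hydrolysis, and an exchange factor such as HSP110 (Hsph1) resets the cycle. HSP90 takes over later folding steps of signalling proteins. Some of these genes are constitutive, such as Hspa8, while others, such as Hspa1a and Hspa1b, are switched on by heat shock factor at heat shock elements when proteins misfold. Separate sets serve the endoplasmic reticulum (ER; Hspa5, Hsp90b1) and mitochondria (Hspa9, Hspd1, Hspe1).

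The promoters of the genes on which the results turn are shown here with their control elements. RefSeq tables of the GRCm38.p6 build, the patch release of the mm10 build named in the submitters' processing notes, held 66 promoter windows of 300 bases for 51 of the 66 genes. Hspa1a and Hspa1b lie close together on chromosome 17 (Hspa1a at chr17:34969359-34972156 and Hspa1b at chr17:34956429-34959238, both on the minus strand). The 150 bases before each start are shown because the pair differed several-fold between cell types. Capitals mark the match to a heat shock element, GAANNTTCNNGAA on either strand with at most 1 mismatch (here 2 overlapping matches on opposite strands, spanning 18 bases), from 114 to 97 bases before the start. No exon of the GENCODE annotation overlaps either stretch.
Hspa1a, chr17:34972157-34972306, minus strand: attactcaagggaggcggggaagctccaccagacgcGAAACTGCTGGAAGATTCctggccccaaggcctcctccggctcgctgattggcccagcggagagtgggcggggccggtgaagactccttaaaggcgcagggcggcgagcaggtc
Hspa1b, chr17:34959239-34959388, minus strand: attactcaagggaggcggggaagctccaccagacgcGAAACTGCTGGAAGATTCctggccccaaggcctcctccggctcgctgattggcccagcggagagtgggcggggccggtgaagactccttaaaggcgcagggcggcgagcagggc

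The 250 bases before the starts of the 2 genes were identical at 247 positions, and their transcripts were 99.3% identical over 2197 aligned bases. Reads from the aligned part may be assigned to either gene, so the sum of the pair is used below for levels. The longest transcripts have 2967 and 2803 bases. Whether the 3′ ends read here lie in the aligned part was not tested. The heat shock element letters, with 1 mismatch allowed, occurred in 7.22% of all 32851 promoter windows and in 14 of the 66 windows of the chaperone genes (21.2%). Without a mismatch, the shares were 0.603% and 9.09%, the latter being 6 windows of Dnajb6, Hspd1, Hspe1 and Hsph1. Dnajb6 and Hsph1 have 2 of these windows each, and the Hspd1 and Hspe1 genes overlap on chromosome 1. The 6 windows may therefore not be separate promoters. The shares describe the letters in the windows and say nothing on binding.

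For the ER chaperones, capitals mark the ER stress element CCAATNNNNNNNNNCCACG, searched without mismatch on both strands. It is shown with 5 bases on either side because Hspa5 and Hsp90b1 were lower in DT in the Cd79a gate. Dnajc3, lower in the Cd209a gate only, is shown because its window also holds the element. The Hsp90b1 window holds another match, from 212 bases before the start, which is not shown. The windows of Dnajb9 and Dnajb11, also called lower in the Cd79a gate, hold no match. The element occurred in 0.119% of all windows and in 3 of the 66 chaperone windows. The Hspa5 stretch lies before the RefSeq start used here but inside an Hspa5 exon of the GENCODE annotation. No exon of that annotation overlaps the Hsp90b1 or Dnajc3 stretch shown.
Hspa5, chr2:34772020-34772048, plus strand: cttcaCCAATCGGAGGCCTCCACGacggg
Hsp90b1, chr10:86705528-86705556, minus strand: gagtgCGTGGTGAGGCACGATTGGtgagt
Dnajc3, chr14:118937822-118937850, plus strand: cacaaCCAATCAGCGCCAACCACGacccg

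The tables held 5702 PBS and 6203 DT cells with 31089434 and 27896059 unique molecules (UMIs), medians of 3719 and 2909 per cell. After filtering, 5651 and 5896 cells were kept, and 8 barcodes occurred in both libraries. Cells were placed in 7 gates by at least 1 UMI of the gate's genes: Cd3e (T cells), Ncr1 (natural killer cells), Cd79a (B cells), Csf3r with S100a8 (neutrophils), Ly6c2 with Ccr2 (classical monocytes), C1qa (macrophages) and Cd209a (type 2 dendritic cells). The gates held 57 to 1382 PBS cells and 74 to 1189 DT cells that passed no other gate, and 646 and 628 cells that passed more than 1 gate were left out. This loss was uneven. In PBS, 237 of 538 Ly6c2 with Ccr2 cells, 238 of 541 C1qa cells and 57 of 114 Cd209a cells were kept. In DT the numbers were 234 of 518, 318 of 622 and 74 of 119. Of Cd3e and Cd79a cells, 1051 of 1317 and 1382 of 1561 were kept in PBS. In each gate the markers of its own type were all detected in both libraries. Markers of other types were also present: the plasmacytoid dendritic cell list summed to 241 and 128 CPM (UMIs scaled to a fixed total) in the Ly6c2 with Ccr2 gate and to 311 and 105 CPM in the Cd209a gate (PBS, DT), and the plasma cell list summed to 1779 and 954 CPM in the Cd79a gate. The epithelial list summed to 1263 and 25.6 CPM in the neutrophil gate and to 80.8 and 1108 CPM in the Cd79a gate, where the red cell list summed to 6.56 and 342 CPM. In the Ncr1 gate the fibroblast list summed to 234 and 0 CPM and the epithelial list to 57.4 and 2.54 CPM. The part of these markers in the ratios of DT to PBS was not tested. RNA of Scgb1a1, a gene of the epithelial list, stood at 24.0 to 63.9 CPM in the PBS gates and at 0 to 3.47 CPM in the DT gates. Sex-linked RNA was another difference between the libraries: of cells that could be called, 76.7% to 97.7% per gate carried Y-linked RNA in PBS and 17.6% to 70.8% in DT. With 1 library per group, no statistical test between groups was possible. Values below are UMIs summed per library and gate, scaled to CPM. Intervals are exact 95% Poisson or binomial intervals that cover counting error and not the variation between mice. Those of summed UMIs and their ratios also leave out the variation between cells. They are too narrow where a few cells hold many of the UMIs.

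Inducible HSP70 was highest in the monocyte, dendritic and macrophage gates, and not in the neutrophil gate. Summed Hspa1a and Hspa1b stood in PBS at 650 CPM (interval 612 to 689) in the Ly6c2 with Ccr2 gate, 621 CPM (559 to 688) in the Cd209a gate and 494 CPM (464 to 526) in the C1qa gate. In the same library they stood at 120 CPM (111 to 130) in the Cd79a gate, 116 CPM (108 to 125) in the Cd3e gate, 115 CPM (102 to 129) in the neutrophil gate and 26.6 CPM (17.2 to 39.2) in the Ncr1 gate. The monocyte and dendritic gates did not differ beyond their intervals, nor did the B cell, T cell and neutrophil gates. In DT the values were 631 CPM (591 to 674), 677 CPM (616 to 742) and 400.3 CPM (376 to 425) in the monocyte, dendritic and macrophage gates. They were 81.9 CPM (72.1 to 92.6), 79.5 CPM (71.9 to 87.7), 90.2 CPM (80.4 to 101) and 10.1 CPM (4.38 to 20.0) in the B cell, T cell, neutrophil and natural killer gates. Thus the 3 high gates were the same in both libraries, and their lowest level was 4.12 times the highest of the other 4 gates in PBS and 4.44 times in DT. Pooled over the 3 gates, a grouping chosen after the values were seen, the level was 5.18 times that of the 3 lymphocyte gates in PBS and 6.88 times in DT.

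**Figure D1:**
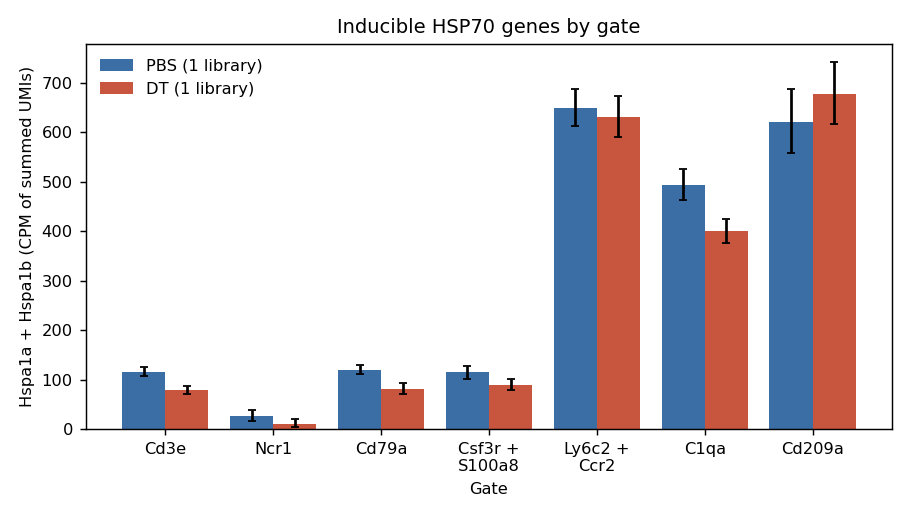
Summed Hspa1a and Hspa1b in CPM (y axis) by gate (x axis), blue for the PBS and red for the DT library, with exact 95% Poisson intervals. The Ly6c2 with Ccr2, C1qa and Cd209a gates sit between 400.3 and 677 CPM, and the other 4 gates between 10.1 and 120 CPM.

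The same split into 3 high and 4 low gates appeared when cells were counted, although the order within the high and within the low gates was not the same. Cells were thinned to 1000 UMIs each, since median depth ran from 2138 UMIs in the DT neutrophil gate to 10249 in the PBS Cd209a gate. In PBS, 34.7% of Ly6c2 with Ccr2 cells (82 of 236), 24.3% of C1qa cells (55 of 226) and 38.2% of Cd209a cells (21 of 55) then held a UMI of Hspa1a or Hspa1b. The share was 8.84% of Cd3e cells (92 of 1041), 10.3% of Cd79a cells (140 of 1364), 5.07% of neutrophils (39 of 769) and 0.877% of Ncr1 cells (2 of 228). In DT the shares were 31.8%, 24.3% and 35.7% in the 3 high gates, and 6.07%, 6.39% and 3.40% in the T cell, B cell and neutrophil gates. None of 192 Ncr1 cells in DT held a UMI in this draw, which allows a share of up to 1.90% of cells with a UMI at this depth. At 500 UMIs per cell 3 of 193 did (1.55%), and without thinning 6 of 193 (3.11%). Before thinning, 62.4% of Ly6c2 with Ccr2 cells, 48.3% of C1qa cells and 70.2% of Cd209a cells held one in PBS, against 4.37% of Ncr1 cells. The neutrophil gene S100a8, used here as a measure of free RNA, was found after thinning in 1.75% of PBS Ncr1 cells, with a median depth of 3430 UMIs before thinning, and in 96.5% of PBS neutrophils. In Cd3e cells, with a median of 4363 UMIs, the S100a8 share was 1.83%. Because S100a8 is far more abundant in its own cells than Hspa1, these shares give no background level for Hspa1, and the part of free RNA in the low Ncr1 share was not tested.

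Within a gate the HSP70 signal was uneven between cells. In thinned PBS Ly6c2 with Ccr2 cells, 10% of the cells held 55.3% of the Hspa1 UMIs, and 21 cells held both genes where the product of the single shares gives 11.2 cells. In DT, 27 such cells were counted where the product gives 10.9. The highest cell held 12 UMIs of 1000 in DT. Because reads of the pair may be assigned to either gene, the joint counts are a description of the assigned reads.

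Genes known to respond early to tissue dissociation or stimulation moved partly with this pattern. The 14 early response genes (Fos, Jun, Dusp1 and others) summed to 6039 CPM in the Ly6c2 with Ccr2 gate, 6416 CPM in the C1qa gate and 5242 CPM in the Cd209a gate in PBS. The sums were 1774 to 1863 CPM in the 3 lymphocyte gates. The neutrophil gate, with low Hspa1 levels, had the highest sum, 32301 CPM. Their part in the HSP70 result was not tested.

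Across the gates, the partners of inducible HSP70 had another order of levels. Hsph1, the HSP110 exchange factor, stood in PBS at 44.6 CPM in the Cd3e and Ncr1 gates, 40.7 CPM in the Cd209a gate, 36.0 CPM in the Cd79a gate, 28.0 CPM in the C1qa gate, 15.6 CPM in the Ly6c2 with Ccr2 gate and 9.89 CPM in neutrophils. Monocytes, among the high gates for Hspa1, were thus below every gate but neutrophils for Hsph1 in PBS. The Cd209a gate, which did not differ from monocytes for Hspa1 beyond the intervals, was not low for Hsph1. Dnajb1, the main inducible HSP40 cochaperone, was at 70.7 CPM in the Cd3e gate and at 38.0 and 40.0 CPM in the Ly6c2 with Ccr2 and C1qa gates. Dnaja1, another cytosolic HSP40, ran from 178 CPM in the Ncr1 gate to 81.0 CPM in the C1qa gate. Few cells held both: at 1000 UMIs per cell, 4 of 82 Hspa1 cells (4.88%) and 4 of the other cells (2.60%) in PBS monocytes held a Dnajb1 UMI. The shares in Hspa1 cells and other cells of PBS were 8.70% and 6.85% in the Cd3e gate, 9.09% and 5.85% in the C1qa gate and 9.52% and 2.94% in the Cd209a gate. In DT they were 5.41% and 1.26% in monocytes and 1.35% and 3.04% in C1qa cells. No gate had more than 9 cells with both, so these shares are imprecise.

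Set against constitutive chaperones, the inducible list was lower in lymphocyte than in myeloid gates. The inducible list was Hspa1a, Hspa1b, Hsph1, Dnajb1, Dnajb4, Hspb1, Hsp90aa1 and Dnaja1, and the constitutive list Hspa8, Hsp90ab1, Hspa4, Hspa9, Hspd1, Hspe1, Dnaja2 and Dnajc7. The log2 ratio of their summed CPM was -1.96, -2.00 and -2.02 in the Cd3e, Ncr1 and Cd79a gates of PBS, and -1.04, -1.07, -1.51 and -1.47 in the neutrophil, Ly6c2 with Ccr2, C1qa and Cd209a gates. In DT it was -2.24, -2.32 and -2.21 in the lymphocyte gates, and -0.94, -0.86, -1.68 and -1.14 in the others. The 3 lymphocyte gates were the lowest in both libraries and did not differ beyond their intervals. In PBS the neutrophil and Ly6c2 with Ccr2 gates did not differ beyond their intervals either, nor did the C1qa and Cd209a gates. Without Hspa1a and Hspa1b the order of monocytes, macrophages and dendritic cells turned: the other 6 inducible genes gave -2.64, -2.79 and -2.67 in PBS, below -2.25, -2.07 and -2.33 in the lymphocyte gates. In the neutrophil gate, where the constitutive list summed to 836 CPM against 2051 to 3044 CPM elsewhere in PBS, the value of these 6 genes was the highest at -1.52. In DT neutrophils were highest too for the 6 genes but not for the full list, with -1.41 in neutrophils, -2.64, -2.94 and -2.75 in the other myeloid gates and -2.36 to -2.54 in the lymphocyte gates.

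**Figure D2:**
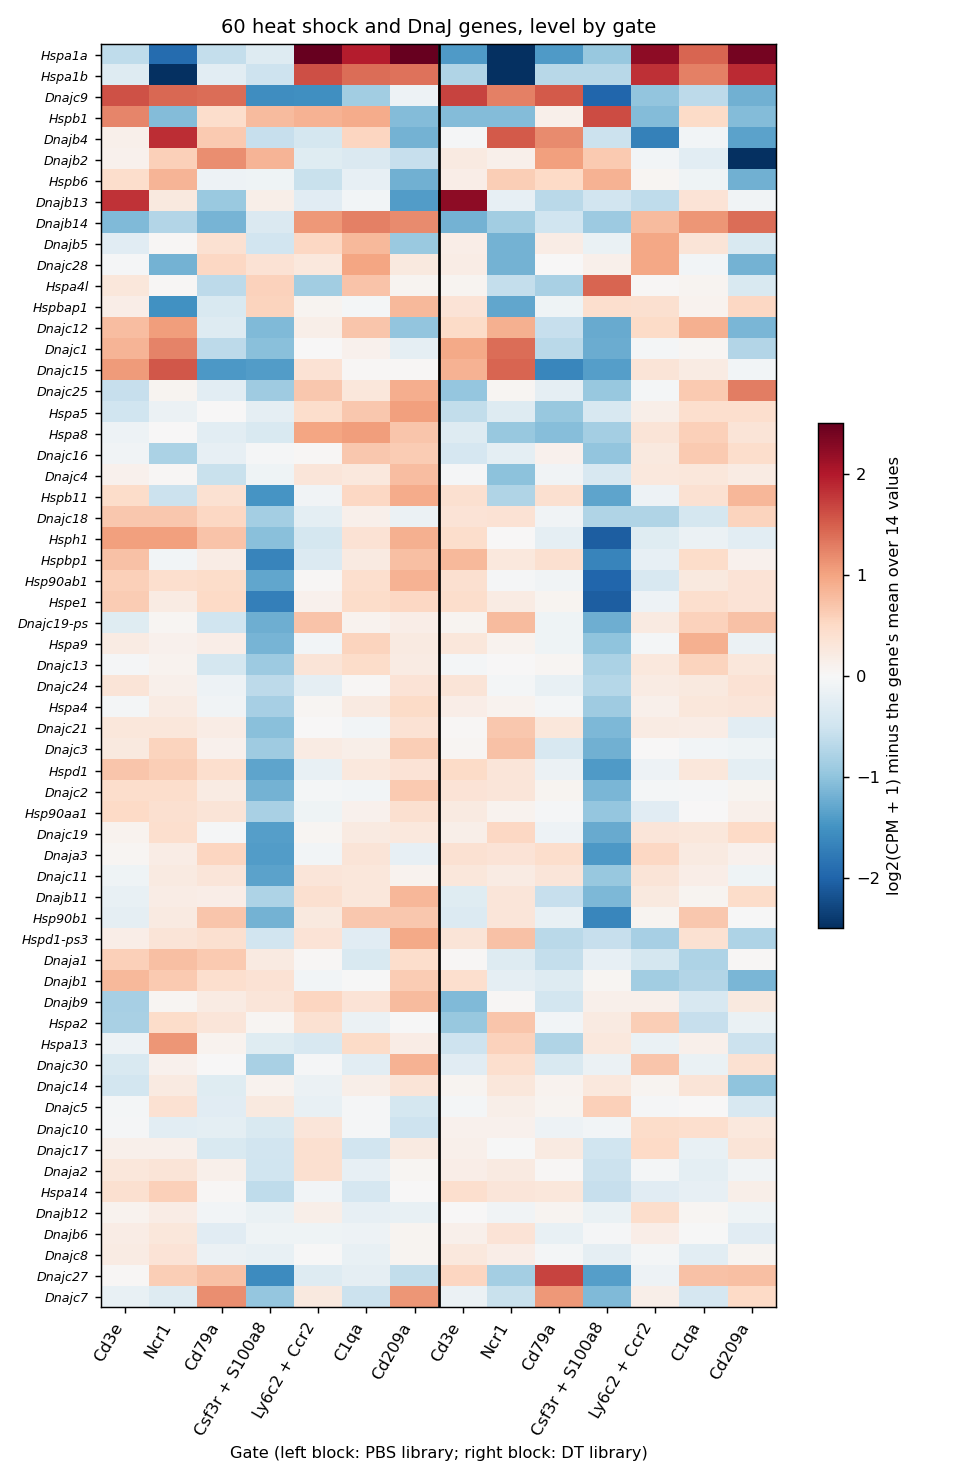
Each row is 1 of 60 of the 61 genes with at least 50 UMIs over the gates, each column a gate in the PBS (left) or DT (right) library. Colour is log2(CPM + 1) minus the gene's mean over its 14 values, and rows are ordered by similarity; genes of a few CPM, such as Hspb1 and Dnajb5, vary with single UMIs. Hspa1a and Hspa1b are red in the monocyte, macrophage and dendritic gates, and many rows are blue in the neutrophil gate.

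Of the 66 genes, 61 had at least 50 UMIs over all gates and libraries, and Dnajc22, Hspa12a, Hspa12b, Hspb7 and Hspb8 did not. A gene was said to stand apart in a gate when it was highest there in both libraries at 2 or more times the median of the other 6 gates. By this rule 11 of the 61 stood apart (18.0%), below the 32.5% of all genes. In 30 of the 61 the neutrophil gate was the lowest in both libraries (28.2% of all genes). Higher levels in each of the monocyte, macrophage and dendritic gates than in each lymphocyte gate, in both libraries, were seen for 8 of 61 genes (10.2% of all genes): Hspa1a, Hspa1b, Hspa5, Hspa8, Dnajb14, Dnajc4, Dnajc13 and Dnajc16. The opposite was seen for 4 of 61 (15.1% of all genes): Dnajb2, Dnajc9, Hspa14 and Hspb6. These rules describe levels and are no test of the list.

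Several DnaJ genes marked lymphocyte gates. Dnajc15, an inner mitochondrial membrane protein known as a brake on respiration, stood in the Ncr1 gate at 302 (PBS) and 279 CPM (DT), and in the Cd3e gate at 214 and 187 CPM. It stood at 104 to 130 CPM in the Ly6c2 with Ccr2, C1qa and Cd209a gates of PBS, and at 36.9 CPM in B cells and 38.0 CPM in neutrophils. Natural killer and T cells were thus high, and B cells and neutrophils low. The order of the T cell, natural killer and B cell gates was the same in DT (32.4 CPM in B cells). Dnajc1, an ER membrane cochaperone, had the same pair of high gates: 101 and 113 CPM in the Ncr1 gate and 76.4 and 82.5 CPM in the Cd3e gate (PBS, DT), against 26.3 and 25.9 CPM in B cells. Dnajb4, a cytosolic HSP40, was at 35.1 and 27.9 CPM in the Ncr1 gate and at most 21.7 CPM in any other gate of either library.

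Dnajc9, a histone chaperone of dividing cells, was at 109 and 116 CPM in the Cd3e gate, 97.7 and 86.2 CPM in the Ncr1 gate and 94.7 and 104 CPM in the Cd79a gate (PBS, DT). It was at 32.2 CPM or less in the other gates. The gene separated lymphocytes from the rest without overlap, although 9.51% of PBS Cd3e cells and 1.52% of PBS Cd79a cells held 2 or more UMIs of 6 mitotic genes. Dnajb13, a gene of cilia and sperm tails, reached 8.15 and 11.3 CPM in the Cd3e gate and at most 2.31 CPM elsewhere. Dnajb2 and Dnajc27 were highest in the Cd79a gate, at 19.1 and 17.5 CPM and at 5.81 and 12.3 CPM.

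**Figure D3:**
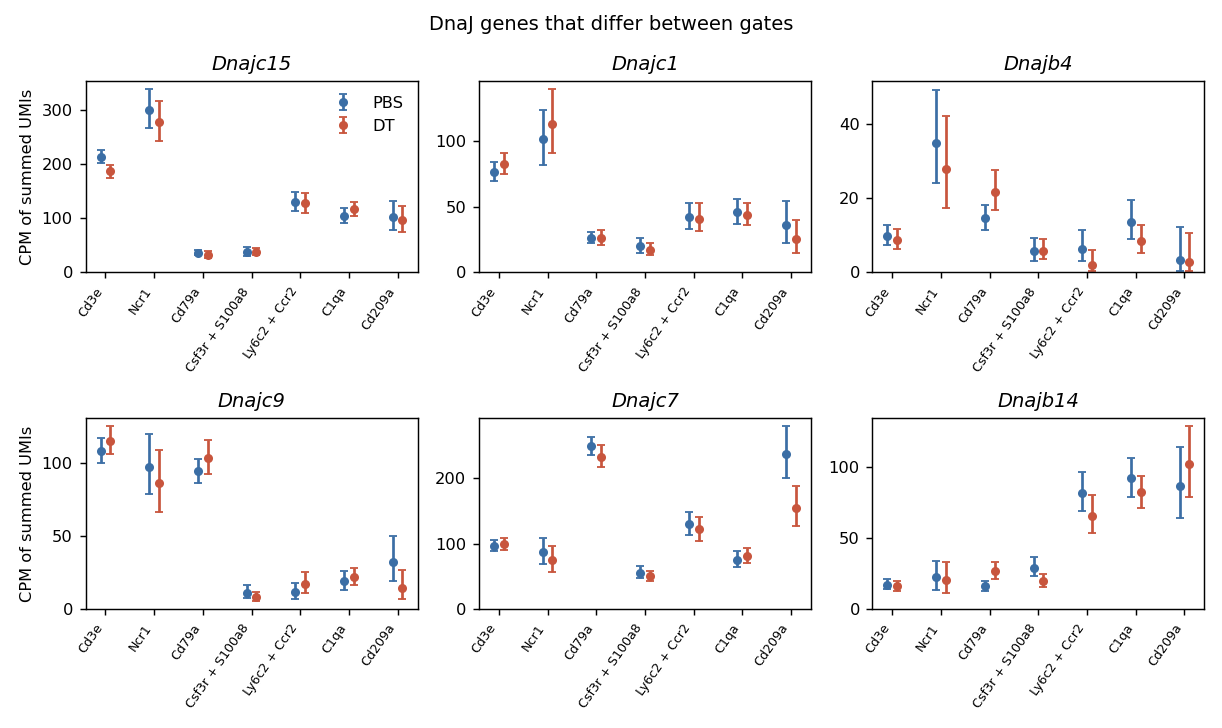
CPM of summed UMIs (y axis, from 0) by gate (x axis) for 6 DnaJ genes, blue for PBS and red for DT, with exact 95% Poisson intervals. Dnajc15 and Dnajc1 peak in the Ncr1 gate at 302 and 101 CPM in PBS, Dnajc9 is high in the 3 lymphocyte gates, Dnajc7 in the Cd79a and Cd209a gates, and Dnajb14 in the 3 right-hand myeloid gates.

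In the myeloid direction, Dnajb14, an ER membrane cochaperone, stood at 81.8, 92.0 and 86.5 CPM in the Ly6c2 with Ccr2, C1qa and Cd209a gates of PBS and at 65.8, 82.1 and 102 CPM in DT. The other 4 gates held 16.1 to 29.3 CPM, so the groups did not overlap in either library. Hspa8, the constitutive HSP70, was at 269, 281 and 221 CPM in those 3 gates of PBS and at 103 to 137 CPM in the other 4. Hspa5, the ER HSP70 also called BiP, was at 542, 633 and 818 CPM against 283 to 402 CPM. Hspa8 stood apart in the C1qa gate. Dnajc25 stood apart in the Cd209a gate with 23.8 and 31.0 CPM.

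Dnajc7, a cochaperone with binding sites for both HSP70 and HSP90, was at 248 and 233 CPM in the Cd79a gate. Its next highest gate was Cd209a with 238 and 155 CPM, while the Cd3e, Ncr1, C1qa and neutrophil gates held 50.3 to 98.8 CPM. In the Cd209a and Ly6c2 with Ccr2 gates the gene moved with Siglech, a marker of plasmacytoid dendritic cells. In the 8 PBS and 6 DT cells of the Cd209a gate with a Siglech UMI it stood at 1194 and 819 CPM, and at 148 and 117 CPM in the gate's other cells. In the Ly6c2 with Ccr2 gate the 13 PBS and 6 DT cells with Siglech held 969 and 1057 CPM and the others 84.5 and 89.6 CPM. Over all kept cells, the 70 PBS and 41 DT cells with 2 or more Siglech UMIs held 1110 CPM (interval 1026 to 1199) and 900.2 CPM (803 to 1006) of Dnajc7. These cells, chosen for Siglech after the levels were seen, had 20.6 and 65.9 CPM of Hspa1a, against 367 and 293 CPM in the Ly6c2 with Ccr2 cells without Siglech.

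The small heat shock genes Hspb1, Hspb6, Hspb7 and Hspb8 were scarce in the gated leukocytes. Hspb1, which holds unfolded proteins in a soluble form, was at 5.58 CPM or less in each gate, and Hspb6 at 3.23 CPM or less. Hspb7 reached 2.35 CPM in the DT neutrophil gate and Hspb8 1.14 CPM in the PBS neutrophil gate. Hspb11, the remaining HSPB gene, was higher, at 7.23 to 42.4 CPM in the PBS gates and 8.23 to 39.8 CPM in DT. Hspb1 was at 18.5 (PBS) and 19.0 CPM (DT) over the 1007 and 1240 cells outside all gates. There it was higher in cells with RNA of genes that mark non-leukocytes. In cells outside the gates with a UMI of Col1a2, a fibroblast collagen gene, Hspb1 stood at 369 CPM (17 cells, interval 257 to 513) in PBS and at 290.3 CPM (24 cells, interval 215 to 383) in DT. With Cdh5, an endothelial cadherin, it stood at 76.7 CPM (91 cells) and 64.3 CPM (74 cells). These Cdh5 cells also held 434 and 409 CPM of Dnajc7, which was high in cells with Siglech. Whether all of them were endothelial was not tested. Hspa12b, an HSPA relative known from endothelium, was at 54.8 and 87.7 CPM in the Cdh5 cells and at 0.882 CPM or less in each gate. Hspb7 had 24 UMIs outside the gates in DT, all of them in 4 cells that also held Col1a2, and none in PBS.

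Dividing T cells differed from other T cells in part of the family. In the Cd3e gate, 100 PBS and 108 DT cells held 2 or more UMIs of the mitotic genes. Hspd1, the mitochondrial chaperonin, was at 345 CPM in these PBS cells and 134 CPM in the other T cells, a ratio of 2.57 (interval 2.26 to 2.92), and the ratio in DT was 1.83 (1.57 to 2.12). Hsp90aa1, the inducible cytosolic HSP90, had ratios of 2.22 and 2.00, Dnajc9 of 2.52 and 2.29, Hsp90b1 of 1.83 and 1.67 and Hspa9 of 1.87 and 1.53. Hspa1b ran the other way, at 32.8 and 26.5 CPM in mitotic cells and 89.8 and 67.4 CPM in the others (PBS, DT). Its copy Hspa1a was at 36.2 and 13.7 CPM in mitotic cells and 38.6 and 24.1 CPM in the others, with a ratio of 0.940 (0.654 to 1.32) in PBS and 0.568 (0.312 to 0.972) in DT. Since reads may be assigned to either copy, a difference of 1 copy alone is uncertain. Over the list, 11 of 50 genes with enough UMIs were at least 1.5-fold higher with an interval without 1 in PBS (15.4% of all genes) and 8 of 49 in DT (14.5%). At least 1.5-fold lower were 1 of 50 in PBS (13.4% of all genes) and 2 of 49 in DT (11.3%).

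The comparison of DT with PBS asked how chaperone RNA in each lineage differed when club cells were depleted. A pair of a gene and a gate was compared when it held at least 50 UMIs over both libraries. It is called higher or lower in DT below when the ratio of CPM was at least 1.5 in that direction and its interval did not include 1. Of 301 pairs of a chaperone gene and a gate, 29 were called lower (9.63%) and 6 higher (1.99%). Over all genes the shares were 2.89% lower and 4.34% higher. Each call describes these 2 libraries and has no replicate check, and depletion, sex-linked RNA and library cannot be told apart.

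By gate, 2 of 55 chaperone genes were lower in the Cd3e gate (1.68% of all genes) and none higher (3.21%). In the Ncr1 gate 4 of 30 were lower (2.84%) and none higher (2.84%). In the Cd79a gate 11 of 54 were lower (2.78%) and 3 higher (7.84%). In the neutrophil gate 2 of 42 were lower (4.34%) and 2 higher (4.67%). In the Ly6c2 with Ccr2 gate 2 of 44 were lower (2.97%) and 1 higher (3.91%). In the C1qa gate 3 of 48 were lower (2.35%) and none higher (3.36%). In the Cd209a gate 5 of 28 were lower (4.78%) and none higher (2.83%). The calls of lower levels were thus concentrated in the Cd79a, Ncr1 and Cd209a gates, and the other 4 gates held 2 or 3 each. The median log2 ratio of the chaperone genes was -0.10 in the Cd3e gate, -0.12 in the Ncr1 gate, -0.10 in the Cd79a gate, -0.10 in neutrophils, -0.03 in monocytes, 0.01 in macrophages and -0.25 in the Cd209a gate. The medians of all genes there were 0.04, 0.00, 0.08, 0.03, 0.00, 0.04 and -0.05.

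Of 40 pairs of the inducible list 12 were called lower and none higher, and of 56 pairs of the constitutive list 6 were lower and none higher (2.89% lower and 4.34% higher over all genes). In cells with Y-linked RNA and no Xist 8 of 32 inducible and 14 of 55 constitutive pairs were lower (6.20% of all genes), and in cells with Xist and no Y-linked RNA 13 of 24 and 2 of 43 (5.48% of all genes), so the order of the lists was not the same in both classes. Dnaja1 was at 160, 178, 167, 124, 108, 81.0 and 144 CPM in the 7 PBS gates (Cd3e, Ncr1, Cd79a, neutrophil, Ly6c2 with Ccr2, C1qa, Cd209a) and at 108, 84.9, 69.9, 91.7, 77.6, 62.1 and 108 CPM in DT. It was lower in DT in each of the 7 gates, and called lower in the Ncr1 gate (ratio 0.476, interval 0.353 to 0.635) and the Cd79a gate (0.419, 0.359 to 0.486). Dnajb1 was called lower in 4 of its 6 gates, with ratios of 0.537 in Ncr1, 0.589 in Cd79a, 0.565 in Ly6c2 with Ccr2 and 0.598 in C1qa cells. Hsph1 was called lower in the 3 lymphocyte gates, from 44.6 to 29.4 CPM in Cd3e, 44.6 to 21.6 CPM in Ncr1 and 36.0 to 18.1 CPM in Cd79a cells. Its Ly6c2 with Ccr2 level was 15.6 CPM in PBS and 17.3 CPM in DT.

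Hspa1a was called lower in the Cd3e gate (38.1 and 21.7 CPM), the Cd79a gate (38.8 and 21.7 CPM) and the neutrophil gate (47.5 and 30.3 CPM). These 3 calls, counted among the 12, are of 1 copy: Hspa1b was called in none of its 6 gates, and the summed pair had ratios of 0.684, 0.682 and 0.785 in these gates, which do not reach 1.5-fold. Summed with Hspa1b, the pooled ratio of DT to PBS was 0.669 (interval 0.609 to 0.735) over the lymphocyte gates and 0.890 (0.841 to 0.942) over the 3 high myeloid gates. Hsp90aa1 was below its PBS level in 7 of 7 gates with log2 ratios from -0.34 to -0.08, and was called in none.

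**Figure D4:**
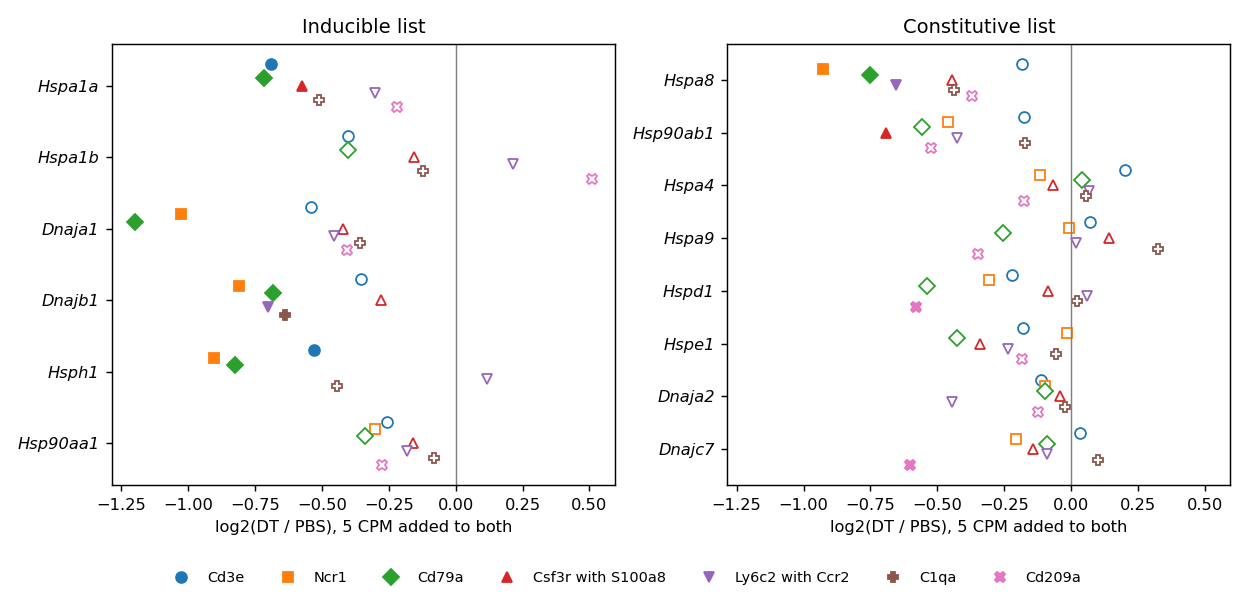
The log2 ratio of DT to PBS with 5 CPM added (x axis) for genes of the inducible (left) and constitutive (right) lists, a symbol for each gate with at least 50 UMIs. Filled symbols are called lower and open symbols are not called; Dnaja1, Dnajb1 and Hsp90aa1 lie to the left of 0 in every gate shown, down to -1.20 for Dnaja1 in Cd79a cells.

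Among constitutive genes, Hspa8 was below its PBS level in 7 of 7 gates and called lower in the Ncr1 gate (137 and 69.7 CPM, ratio 0.509), the Cd79a gate (113 and 64.7 CPM, ratio 0.575) and the Ly6c2 with Ccr2 gate (269 and 169 CPM, ratio 0.628). In this last gate, where Dnajb1 was called too, marker lists of other cells moved between the libraries: the natural killer list summed to 21.9 and 423 CPM, the T cell list to 45.5 and 158 CPM and the red cell list to 5.19 and 929 CPM (PBS, DT). Their part in the calls was not tested. Hsp90ab1, the constitutive HSP90, was also below its PBS level in 7 of 7 gates and called in neutrophils (409 and 251 CPM, ratio 0.615). Hspa4, an HSP110 relative, had log2 ratios from -0.18 to 0.20, and Hspa9, the mitochondrial HSP70, from -0.35 to 0.33. Of 49 pairs of the mitochondrial list (2.89% lower and 4.34% higher over all genes), 1 was lower (Hspd1 in the Cd209a gate, 139 and 91.4 CPM) and 2 higher. Those 2 were Dnajc30, at 12.9 and 21.2 CPM in neutrophils and 23.1 and 38.8 CPM in monocytes.

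The ER list had 5 of 9 genes called lower in the Cd79a gate (median log2 ratio -0.58) and 3 of 5 in the Cd209a gate (-0.61). Of all genes, 2.78% and 4.78% were called lower in these gates. Hspa5 was at 402 (PBS) and 207 CPM (DT) in the Cd79a gate (ratio 0.515, interval 0.471 to 0.563), and Hsp90b1, the ER HSP90, at 599 and 324 CPM (0.540, 0.503 to 0.580). Dnajb11, a partner of Hspa5, was at 111 and 66.3 CPM, Dnajb9 at 35.8 and 22.3 CPM and Hspa13 at 14.3 and 7.44 CPM. Over all gates 9 of 54 pairs of the ER list were called lower and none higher (2.89% and 4.34% over all genes). Plasma cells, marked by Jchain, moved with this result. In PBS, 16 of 1382 cells of the gate held 5 or more Jchain UMIs, and they carried 49.1% of the gate's Hsp90b1 UMIs and 27.0% of its Hspa5 UMIs. In DT, 3 of 1058 cells did so, with 22.6% and 10.6%. In the Jchain cells Hsp90b1 was at 4925 (PBS) and 3519 CPM (DT).

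Without the Jchain cells, an alternative chosen after the data were seen, Hsp90b1 was at 324 and 256 CPM, a ratio of 0.789 that is no longer called, and Dnajb9 at 18.5 and 20.8 CPM. Hspa13, at 9.17 and 6.61 CPM (ratio 0.720, interval 0.404 to 1.24), was not called either, so 3 of the 5 calls were lost. Hspa5 remained called with 312 and 189 CPM (ratio 0.606, interval up to 0.667), as did Dnajb11 with 95.5 and 60.5 CPM (0.633). The inducible Dnaja1 in the same cells stayed at 174 and 70.4 CPM (0.404). Mitotic genes also moved in this gate, with 6 of 6 called lower and a summed level of 156 CPM in PBS and 41.4 CPM in DT. In the Cd209a gate Hspa5 (818 and 534 CPM), Hsp90b1 (587 and 366 CPM) and Dnajc3 (134 and 81.1 CPM) were called lower as well, from 57 PBS and 74 DT cells.

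**Figure D5:**
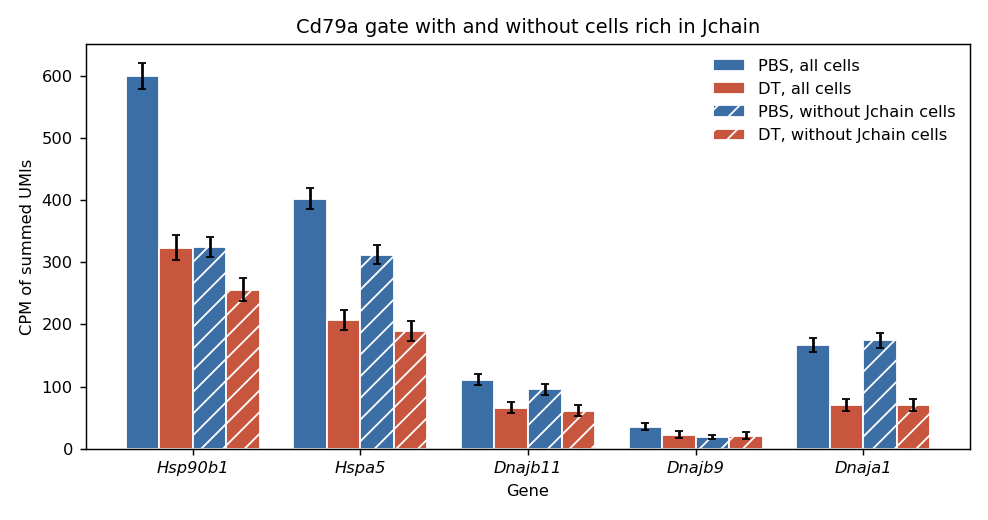
CPM (y axis) of 5 genes (x axis) in the Cd79a gate, blue for PBS and red for DT, plain bars for all cells and hatched bars without cells that hold 5 or more Jchain UMIs, with exact 95% Poisson intervals. Hsp90b1 goes from 599 and 324 CPM to 324 and 256 CPM when these cells are left out, while Dnaja1 keeps a ratio near 0.4.

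Few chaperone genes were higher in DT. Besides Dnajc30, these were Hspa4l in neutrophils (27.0 and 50.3 CPM) and, in the Cd79a gate, Dnajb14 (16.3 and 26.5 CPM), Dnajc17 (8.63 and 13.6 CPM) and Dnajc27 (5.81 and 12.3 CPM). Hspa4l, an HSP110 relative, was in turn called lower in the C1qa gate (29.5 and 18.5 CPM).

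Within sex-called cells the inducible list stayed below its PBS level in most gates. In cells with Y-linked RNA the ratio of DT to PBS for the summed inducible list was 0.738 in the Cd3e gate, 0.563 in Ncr1, 0.704 in Cd79a, 0.735 in neutrophils, 1.04 in Ly6c2 with Ccr2, 0.846 in C1qa and 0.938 in Cd209a cells. In cells with Xist it was 0.692, 0.785, 0.610, 0.932, 0.577, 0.427 and 0.566 in the same order. The PBS cells with Xist were few in several gates: 6 neutrophils, 7 Cd209a, 14 Ncr1, 21 Ly6c2 with Ccr2 and 30 C1qa cells. The constitutive list gave 0.961, 0.665, 0.715, 0.487, 0.669, 0.929 and 0.760 in the cells with Y-linked RNA and 1.14, 1.10, 0.858, 2.09, 1.02, 0.957 and 0.822 in those with Xist. So the constitutive list lay below 1 in 7 of 7 gates in one class of cells and in 3 of 7 in the other. The sum of the ER list in the Cd79a gate was 0.997 in cells with Y-linked RNA and 0.196 in cells with Xist, where all cells gave 0.574.

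Of 151 pairs of 28 other genes of the pathway (cochaperones, HSP90 cofactors, heat shock factors and TRiC chaperonin subunits), 6 were called higher and 6 lower (4.34% and 2.89% over all genes). Their median log2 ratio was below 0 in each of the 7 gates, from -0.30 to -0.06. Fkbp5, an HSP90 cofactor induced by glucocorticoids, made up 4 of the 6 higher pairs, with 105 and 195 CPM in neutrophils, 48.9 and 94.5 CPM in B cells, 87.0 and 159 CPM in monocytes and 81.5 and 124 CPM in Cd209a cells. Chordc1, a partner of HSP90, made up 3 of the 6 lower pairs, with 51.9 and 31.9 CPM in monocytes. Of 102 pairs of 15 unfolded protein genes outside the family, 13 were lower and 1 higher, 7 of the lower ones in the Cd79a gate (Creld2 at 116 and 22.3 CPM). Of 94 pairs of the early response list, 12 were higher and 2 lower. Dusp1, a phosphatase of that list, was at 545 and 1018 CPM in monocytes and 521 and 927 CPM in C1qa cells, and in neither gate was an inducible chaperone called higher.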

How the data were processed

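Each library's table gave log2 values per cell, which the authors deposited as log2(CPM + 1); the submitters' processing notes name STAR, Partek, Seurat and mm10, and the sources used here do not state the settings. The log was undone with Python 3.11.15, NumPy 2.4.6 and SciPy 1.17.1, and each cell's smallest step gave whole UMIs for 100% of values within 1%. Kept cells had at least 200 genes and 500 UMIs, with no more than 10% of UMIs mitochondrial (51 PBS and 307 DT cells removed). No doublet caller was run; cells passing more than 1 gate were left out. UMIs were summed per gate and library. Log2 ratios have 5 CPM added to both sides. Levels are 3′ UMI counts without length scaling, so they are not compared between genes. Male-called cells carry RNA of 4 Y-linked genes (Ddx3y, Eif2s3y, Kdm5d, Uty) without Xist, and female-called cells the reverse. Named genes were members of the lists, those that stand apart and up to 3 called in each direction per gate. Hspa12b, Hspb11, Dnajb5, Dnajb6, Dnajc4, Dnajc16 and Hspa14 were named after their values were seen. The members and lists were chosen with earlier results of these data known. The call rule was tested on simulated Poisson counts of the summed gates with known changes. These held no variation between cells or mice, so they do not give the rate of false calls in these data. Alternatives for gates, cell filters, depth, sex-called cells, scaling and call rules were run. Hspb2, Hspb3, Hspb9 and Dnajc6 were listed but not analysed here. One member counted among the 66 is not reported here by name or in the heat map.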

Additional observations from a re-analysis of the deposited data

Results flagged for a closer look

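Hspa4l, an HSP110 relative, ran in opposite directions in 2 gates: the log2 ratio of DT to PBS was 0.79 in the Csf3r with S100a8 gate and -0.55 in the C1qa gate. The difference between the gates was not tested, since each group had 1 library. In female-called neutrophils the value was -0.94, with 6 such cells in PBS.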

How the results depend on the processing

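No paired analysis was possible because each group had 1 library. The difference between the highest and lowest gate in the log2 ratio of inducible to constitutive genes was 0.97 in PBS and 1.46 in DT. It became 0.58 and 0.84 with cells that pass a gate with or without another, 1.18 and 1.81 when thinned to 1000 UMIs, 0.78 and 1.76 in male-called cells, 1.13 and 1.68 with equal weight per cell, 0.80 and 1.00 with the mean of log2 CPM, 1.26 and 2.99 without Hsp90aa1 and Dnaja1, and 1.30 and 3.50 with the 4-gene list. In PBS it was 1.23 without the deepest cells and 1.85 in female-called cells. The 11 genes that stand apart became 2 in female-called cells and 4 at a fold of 3. The 29 lower pairs became 55 at a lower fold and 4 at a fold of 2. Of these 29, 12 were still called in male-called cells, 10 in female-called cells and 10 when thinned to 1000 UMIs, where fewer pairs could be compared (213, 158 and 142 of 301), and 20 to 29 under the other alternatives at 1.5-fold. The 6 higher pairs became 10 without the deepest cells, 3 at 100 UMIs or more, 14 at a lower fold and 1 at a fold of 2. The share of cells with Hspa1a or Hspa1b was compared between the pooled Ly6c2 with Ccr2, C1qa and Cd209a gates and the pooled lymphocyte gates. Neutrophils were left out of both. The share was 21.7 (PBS) and 22.8 (DT) percentage points higher in the former, 14.6 and 15.4 when thinned to 500 UMIs and 35.1 and 37.2 without thinning.

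These log2 ratios changed sign. Dnajb9 in the Cd79a gate was 0.15 without the deepest cells and 0.13 without Jchain cells, with or without mitotic cells. In male-called cells of that gate Hsp90b1 was 0.31 and Hspa13 was 0.24. In female-called cells Hsph1 in Ncr1 was 0.27, Hsp90ab1, Hspa1a and Hspa4l in neutrophils were 0.89, 0.20 and -0.94, and Hspd1 in Cd209a was 0.52. The Ncr1, neutrophil and Cd209a gates held 14, 6 and 7 such cells in PBS. The cause was not tested. Besides the main counts and differences, 711 values under the alternatives stayed within their limit and 88 moved beyond it without a change of sign. These were values of single genes, the summed Hspa1 pair, shares of cells with Hspa1 and the number of genes compared across gates. The limit was the interval of a value, or 1.5-fold for that number. Rescaling between libraries moved all genes by at most 0.11 on the log2 scale. Small gates (57 and 74 Cd209a cells) and 1 library per group limit the precision.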
